A study of Rattus norvegicus with 9 samples.

Results

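The genes described here encode subunits of the mitochondrial respiratory chain and of ATP synthase. They were chosen by gene symbol alone, as the probe sets whose single symbol begins with Nduf and a subunit letter, is Sdha, Sdhb, Sdhc or Sdhd, begins with Uqcr, or follows the patterns of the Cox4 to Cox8 and Atp5 families. The rule reads no measured value, but it was set with earlier results of these data known. The choice gave 77 genes, with 86 probe sets, of 14217 genes measured by a single-symbol probe set. By complex they were 33 genes of complex I, 4 of complex II, 7 of complex III, 17 of complex IV and 16 of complex V, where Ndufa4 and its relative Ndufa4l2 were counted with complex IV. Where a gene had several probe sets, the brightest on average over the 9 arrays stands for it. The choice left out some genes of the chain and the synthase with other names (Ndufab1, Cox4i1, Cox4i2, Cyc1 and Dmac2l), which are given separately, and took in Cox6c-ps1, whose symbol marks a pseudogene. Another 6 subunit symbols, among them Cox7a2, were measured only by probe sets annotated with several genes and are not described by name.

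Expression was measured in the tongue of male Sprague-Dawley rats with Affymetrix rat expression arrays, 3 arrays in each of 3 groups. Normal rats were given distilled water. Rats of the 4NQO group were given 0.002% 4-nitroquinoline oxide (4NQO) in the drinking water, a DNA-damaging carcinogen under which dysplasia and then squamous cell carcinoma develop in the tongue, and by the labels such rats were killed from week 14 to week 22 as lesions appeared. Rats of the IL-1Ra group had 4NQO and also IL-1Ra, the antagonist of the interleukin-1 receptor, so that 4NQO is common to both treated groups. The study's methods place the IL-1Ra injections below the mucosa, midway along the tongue, weekly, with saline injections in the 4NQO group, which the normal group did not receive by that account. They describe 14 weeks of 4NQO before rats were allotted at random to the treated groups. The injections ran from week 14 to week 22, with killing at the end of week 22. By the study's text the arrayed tissues were drawn at random within each group. Neither the lesion stage of a sampled tongue nor, in so many words, a separate animal for each array is given in the labels, so the p-values below measure the spread between these samples, which may be technical in part.

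The respiratory chain passes electrons from NADH (complex I) and from succinate (complex II) through complex III to complex IV, cytochrome c oxidase, which reduces oxygen to water. Complexes I, III and IV pump protons across the inner mitochondrial membrane, and complex V, the ATP synthase, uses their return to make ATP. Most subunits are encoded in the nucleus and only a few core subunits by mitochondrial DNA. The tongue is largely skeletal muscle under a stratified epithelium, and muscle fibres, oxidative ones above all, are rich in mitochondria. Some subunits of complex IV come in a form typical of heart and skeletal muscle (Cox6a2, Cox7a1, Cox8b) and a form found in most tissues (Cox6a1, Cox7a2, Cox8a).

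Nuclear genes of the chain are known targets of the factors NRF-1, GABP (an ETS factor), YY1 and the estrogen-related receptors, and their promoters were searched for the core letters of each. RefSeq promoters of the GRCr8 build, from 250 bases before to 50 bases after the start, were found for 70 of the 77 genes. On either strand GCGCATGC (NRF-1) occurred in 7 of the 70 (10.0%), against 2.47% of all 33469 promoters and 3.11% of those of protein-coding genes. CCGGAAGT (ETS, GABP) occurred in 8 (11.4%), against 3.81% and 4.77%, and AAGATGGC (YY1) in 16 (22.9%), against 3.17% and 3.67%. The last of these words contains ATG, and whether a match was a start codon was not tested. TCAAGGTCA (ERR) occurred in 2 (2.86%), against 0.433% of all promoters, and CTATTTATA (MEF2, a muscle factor) in none, against 0.362%. In 0 of the 70 promoters did matches of different words overlap. A match is a description of the letters, not a binding site.

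The 250 bases before the start are shown for 3 genes that differ in these words and in their values below: Atp5po, a stalk subunit of ATP synthase whose values followed those of the other subunits closely, and the forms Cox8a and Cox8b of the same cytochrome c oxidase subunit. All 3 lie on the minus strand of GRCr8 and are written 5′ to 3′ along the gene, with the matched letters in capitals. Atp5po (chr11:44657484-44657733) holds the NRF-1 word on both strands, starting 59 bases before the start on the gene's strand and overlapping its own reverse complement. Cox8a (chr1:213833624-213833873) holds the ETS word on the other strand, from 58 and from 20 bases before the start, and Cox8b (chr1:205408274-205408523) holds none of the 5 words. The YY1 word lies across the start of Cox8a on the other strand, with its first 4 bases at the very end of the printed stretch, and just after the start of Atp5po, which the printed stretch does not cover. The promoter of Cox6a1 is not shown.
Atp5po: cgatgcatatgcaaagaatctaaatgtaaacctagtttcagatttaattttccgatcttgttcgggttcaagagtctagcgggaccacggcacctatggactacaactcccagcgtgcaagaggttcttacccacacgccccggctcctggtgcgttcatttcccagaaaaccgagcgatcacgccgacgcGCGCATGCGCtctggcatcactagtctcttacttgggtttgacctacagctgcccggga
Cox8a: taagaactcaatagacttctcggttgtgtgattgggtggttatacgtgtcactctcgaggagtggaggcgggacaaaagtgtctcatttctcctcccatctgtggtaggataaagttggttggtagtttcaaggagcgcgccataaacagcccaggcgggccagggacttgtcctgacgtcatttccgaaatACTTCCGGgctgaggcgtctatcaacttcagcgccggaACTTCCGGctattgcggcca
Cox8b: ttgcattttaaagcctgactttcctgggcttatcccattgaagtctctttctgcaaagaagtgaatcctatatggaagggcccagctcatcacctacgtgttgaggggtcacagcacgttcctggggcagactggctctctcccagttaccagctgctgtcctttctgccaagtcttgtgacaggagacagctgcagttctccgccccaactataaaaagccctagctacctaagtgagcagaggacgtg

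Of the 77 genes, 73 lay above the upper quartile of all probe sets on every array, and 59 had a mean of 11 log2 or more. Cox7b2 lay below the lower quartile on every array, and Cox6b2, Cox6c-ps1 and Ndufa4l2 lay in between. The arrays correlated with each other at 0.967 or more over all probe sets. Their number limits the precision: the 95% interval of a difference between groups reached a median of 0.24 log2 to each side over the 77 genes. Markers of both main tissues were bright on every array, such as the muscle creatine kinase Ckm at 13.32 to 13.57 log2 and the mucosal keratin Krt13 at 12.96 to 13.64, in tissue labelled as tongue, whereas the design text of the series speaks of epithelia and fibroblasts. The 3′ minus 5′ difference of the beta-actin control probe sets, a sign of RNA quality, ran from 0.74 to 0.86 log2 on normal, 1.07 to 1.29 on 4NQO and 0.98 to 1.27 on IL-1Ra arrays. That of hexokinase ran from 1.47 to 1.53, 1.29 to 1.78 and 1.80 to 2.20 in the same order. Scaling was that of the deposited values, under which the median level of all genes ran from 6.45 to 6.51 log2 on normal, 6.603 to 6.72 on 4NQO and 6.59 to 6.70 on IL-1Ra arrays. The median over all genes of the 4NQO minus normal difference was 0.08 log2, and 0.02 after quantile normalization.

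The first comparison asks whether the carcinogen changed the mRNA of the chain. In 4NQO against normal tongue the subunits lay close to their normal level on average: 41 of the 77 estimates lay above 0 and 36 below, with a median of 0.01 log2 (all genes, 0.08) and a median size of 1.07-fold. The average spans a split group. As deviations from each gene's own mean, the member medians were 0.09, 0.17 and -0.11 log2 on 4NQO arrays 1 to 3. On normal arrays they ran from 0.02 to 0.08. No subunit passed the limma test as higher (0 of 77, against 12.4% of all genes), and only Cox6c-ps1 passed as lower (1 of 77, 1.3%, against 5.08% of all genes). The first of these all-gene shares depended on the scaling, at 5.24% after quantile normalization and 3.97% after cyclic loess, where 0 members passed as higher as well. At an unadjusted p under 0.05, 4 genes passed (5.19%, against 36.5% of all genes). The 95% interval lay within 1.5-fold of no difference for 73 of the 77, the exceptions being Cox6b2, Cox6c-ps1, Cox7a1 and Ndufa4l2. These intervals belong to the brightest probe set of each gene and are not adjusted for their number, so larger differences are not excluded. Dimmer probe sets of Uqcrc2 and Ndufa9 gave 1.52-fold lower and 1.53-fold higher values in 4NQO. Groups that did not overlap were seen for 4 genes higher in 4NQO (5.19%, against 26.5% of all genes) and for 6 lower (7.79%, against 14.8%). After quantile normalization the higher shares were 10.4% of members and 18.1% of all genes, and after cyclic loess 6.49% and 16.0%. In a piece of tissue, fewer cells of a type and less RNA per cell cannot be told apart.

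The second comparison asks what IL-1Ra changed in rats on 4NQO. Here 73 of the 77 estimates lay below 0, with a median of -0.15 log2, a level 9.59% lower, against a median of -0.04 over all genes and of -0.08 over the 368 genes with a mean of 11 log2 or more, 59 of them members. None passed the limma test (0 higher, against 1.91% of all genes, and 0 lower, against 0.753%), and 8 passed an unadjusted p under 0.05 (10.4%, against 21.7% of all genes), all of them lower. In 22 genes (28.6%, against 13.5% of all genes) every IL-1Ra array lay below every 4NQO array, 12 of them in complex I, 5 in complex V, 3 in complex IV and 2 in complex III. Of the 368 bright genes 16.3% did so, and of the 59 bright members 33.9%. The count of 22 became 23 after quantile normalization (29.9%, against 11.4% of all genes) and 15 after cyclic loess (19.5%, against 9.25%). In 0 genes did every IL-1Ra array lie above every 4NQO array (all genes, 9.31%). The largest difference was that of Ndufs1, 1.24-fold, and the 95% interval stayed within 1.5-fold for all but Cox5a, Cox7a1 and Ndufs1.

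The third comparison sets IL-1Ra against normal tongue, and shares its arrays with the others. Of the 77 estimates 68 lay below 0, with a median of -0.13 log2 or 8.6% lower, against a median of 0.04 over all genes and of -0.06 over the 368 bright genes. None passed the limma test (0 higher, against 1.66% of all genes, and 0 lower, against 0.542%), and 15 passed an unadjusted p under 0.05 (19.5%, against 25.6%). In 49 genes (63.6%, against 14.4% of all genes) every IL-1Ra array lay below every normal array, and in 3 (3.9%, against 25.9%) every IL-1Ra array lay above. By complex the 49 were 17 of 33 genes of complex I, 3 of 4 of complex II, 6 of 7 of complex III, 11 of 17 of complex IV and 12 of 16 of complex V. On the normal and IL-1Ra arrays bright genes varied less than all genes, with a median SD within each group of 0.07 log2 against 0.11 and 0.14. Over the 368 bright genes the share was 35.6%, and among those 59 members it was 67.8% (40 genes). The count was 43 after quantile normalization (55.8%, against 17.4% of all genes) and 45 after cyclic loess (58.4%, against 16.8%). The differences themselves were small, and the 95% interval stayed within 1.5-fold for 69 of the 77.

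**Figure D1:**
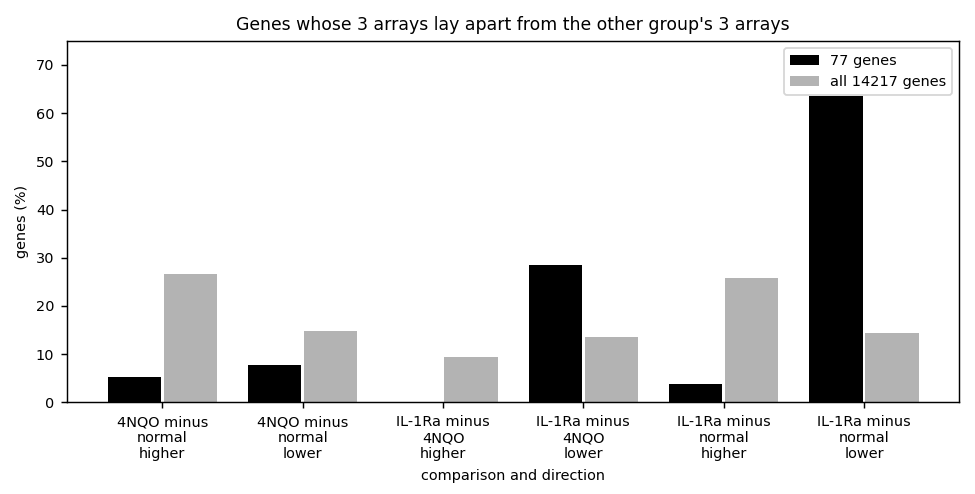
Share of genes, in percent, whose 3 arrays in the first group of a comparison all lay above (higher) or all below (lower) the 3 arrays of the second group. Black bars give the 77 respiratory chain and ATP synthase genes and grey bars all 14217 genes. For IL-1Ra minus normal, lower, the bars stand at 63.6% and 14.4%, and in the 3 higher columns the black bar is the shorter one.

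**Figure D2:**
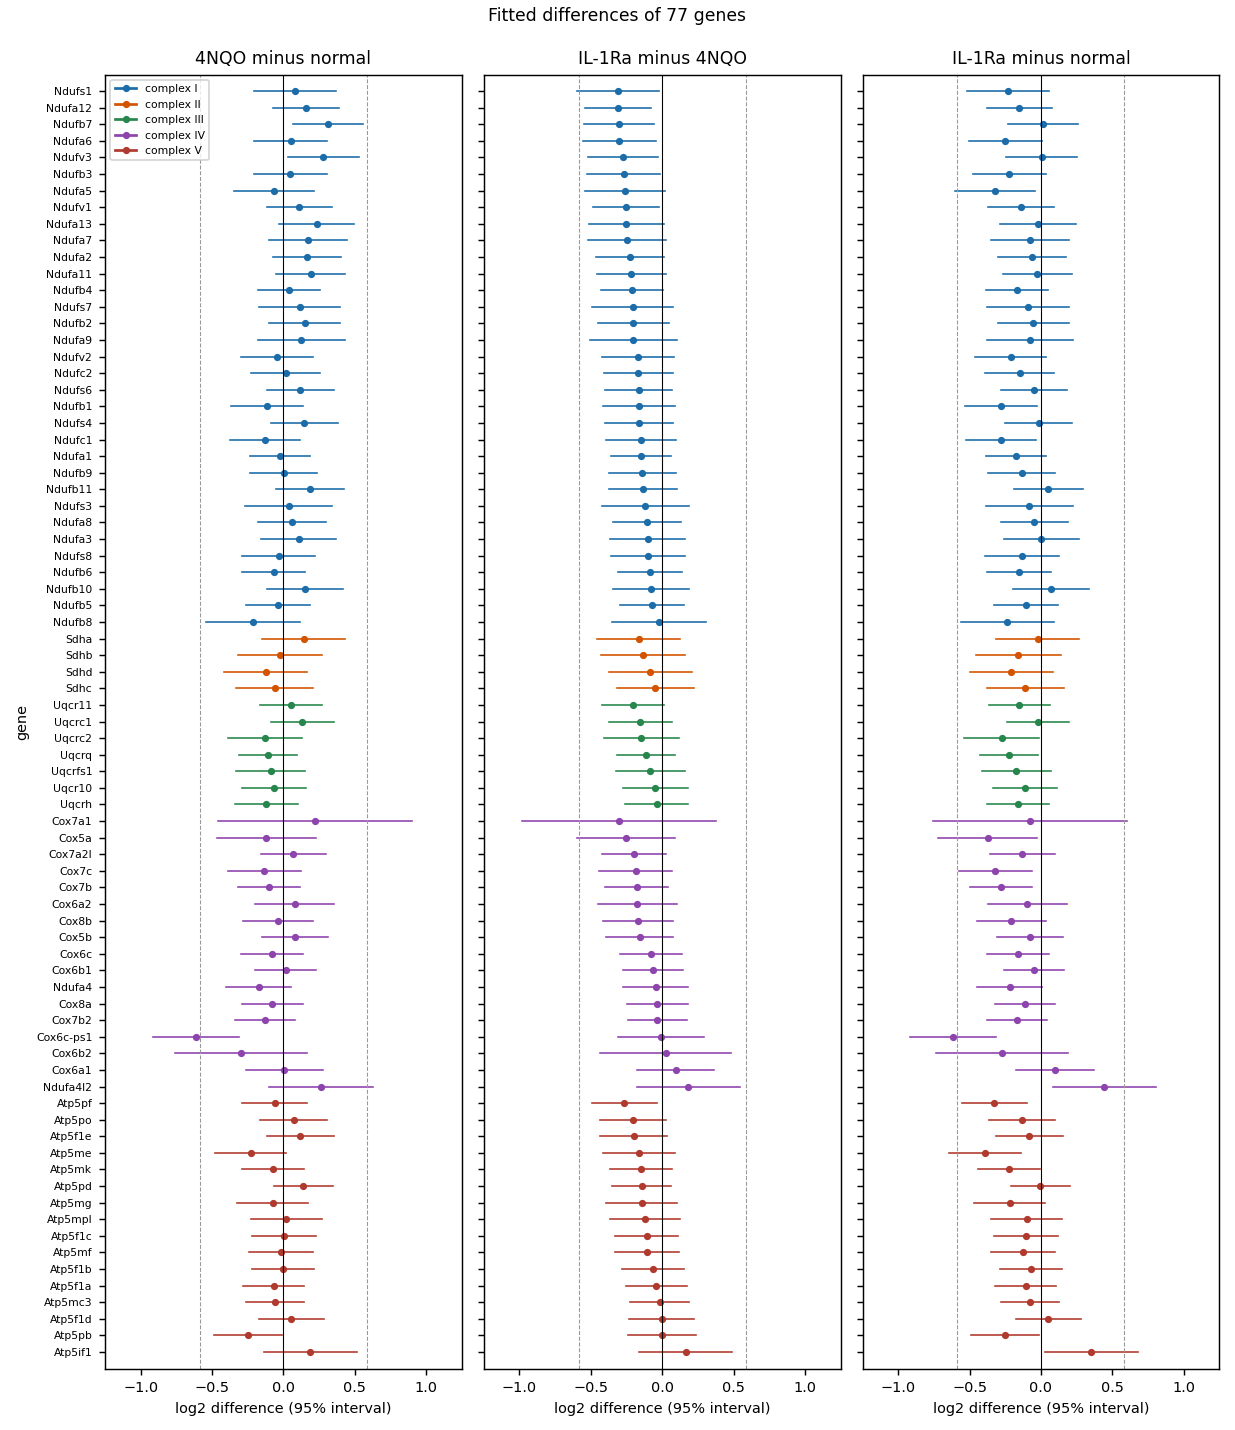
Fitted log2 differences (points) with 95% intervals (lines) of the 77 genes in the 3 comparisons, coloured by complex and ordered within each complex by IL-1Ra minus 4NQO. Dashed lines mark 1.5-fold. In the middle column 73 points lie left of 0, and 74 of the 77 intervals stay inside the dashed lines.

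On the scale of each gene's deviation from its own mean over the 9 arrays, the median of the 77 genes was 0.03, 0.08 and 0.02 log2 on normal arrays 1 to 3, 0.09, 0.17 and -0.11 on 4NQO arrays 1 to 3, and -0.06, -0.13 and -0.07 on IL-1Ra arrays 1 to 3. The IL-1Ra arrays were thus all below the normal ones, while 4NQO was split, with arrays 1 and 2 highest of all and array 3 among the IL-1Ra arrays. On 4NQO array 3, 72 of the 77 genes were at the lowest of their 3 4NQO values (36.4% of all genes, and 55.7% of the genes with a mean of 11 log2 or more). Their median there was -0.22 log2 relative to the mean of arrays 1 and 2, against 0.00 over all genes. The 5 that were not lowest there were Atp5if1, Cox5a, Cox6a1, Cox8a and Ndufa3. The median SD of a member within a group was 0.15 log2 for 4NQO, against 0.05 for normal and 0.05 for IL-1Ra. The wider spread in 4NQO was not particular to the members. Over all genes the median SD was 0.20, 0.11 and 0.14 in the same order. Over the genes with a mean of 11 log2 or more it was 0.20, 0.07 and 0.07.

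**Figure D3:**
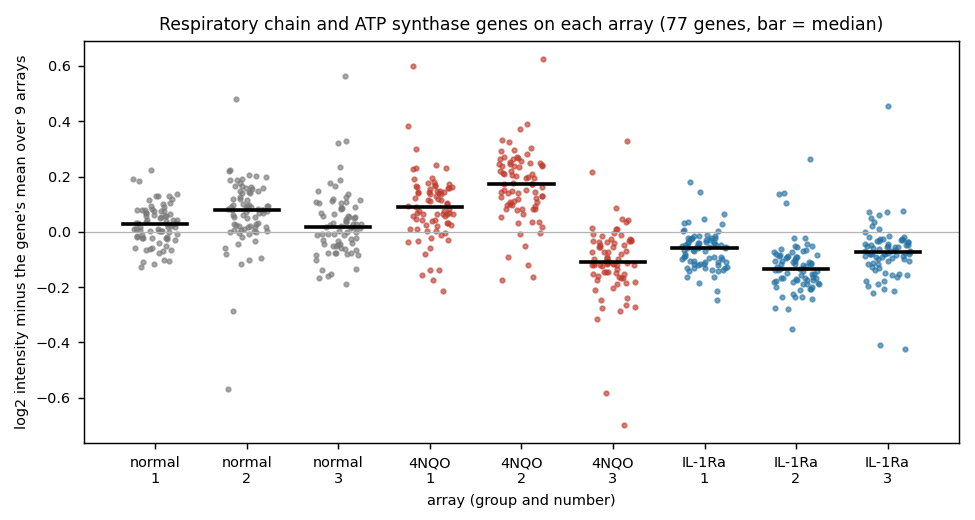
Log2 intensity of each of the 77 genes minus its own mean over the 9 arrays (points), by array, with the median of each array as a bar. The medians run from 0.02 to 0.08 on normal arrays, lie at 0.09, 0.17 and -0.11 on 4NQO arrays and from -0.13 to -0.06 on IL-1Ra arrays.

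Other tissue markers moved along the arrays too. For the calls below, 12.4% of all genes were called higher and 5.08% lower in 4NQO minus normal. The shares were 1.91% and 0.753% in IL-1Ra minus 4NQO, and 1.66% and 0.542% in IL-1Ra minus normal. The 11 measured markers of skeletal muscle in general had summed levels (log2 of the summed intensity) of 15.65 to 15.82 on normal, 15.63 to 16.03 on 4NQO and 15.43 to 15.66 on IL-1Ra arrays, with 4NQO array 3 lowest of its group. Of these 11, 1 rose in 4NQO against normal (Tcap, 9.09%, below the share of all genes). In IL-1Ra against 4NQO 1 fell (Ttn, the giant sarcomere protein, 9.09%). The 10 fast fibre markers ran from 15.89 to 16.06, 15.79 to 16.14 and 15.70 to 15.87 in the same order, and 0 of 10 passed in any comparison. The 10 slow fibre markers ran from 13.74 to 13.87, 13.72 to 13.81 and 13.55 to 13.63. The brightest of them, Mb, at 13.22 to 13.36 log2, made up most of that level and differed by -0.06 in IL-1Ra minus 4NQO. In that comparison 5 of 10 fell (Casq2, Atp2a2, Tnnc1, Tnni1 and Tnnt1), with a list median of -0.99 log2 beside the -0.15 of the chain. Only Tpm3 had estimates above 0, at 0.33 there and 0.62 in IL-1Ra minus normal. Against normal 4 of the 10 fell in IL-1Ra (Myl2, Tnnc1, Tnni1 and Atp2a2). These 4 calls were lost without IL-1Ra array 1 and without any 1 normal array, where 0 of all genes passed. Keratinocyte markers (10 genes) ran the other way, from 15.20 to 15.52 on normal, 15.08 to 15.84 on 4NQO and 15.63 to 15.78 on IL-1Ra arrays, with 4NQO array 3 highest of all 9. Of the 10, 1 rose in 4NQO against normal (Tp63, 10.0%, also below the share of all genes) and 0 passed in the other comparisons. Myh7, the myosin that defines slow fibres, was dim on all arrays, at 2.79 to 4.56 log2. Of 8 fibroblast markers 6 fell in 4NQO against normal, all but Fbln1 and Pdgfra, with a list median of -1.11 log2, and in IL-1Ra minus 4NQO 0 passed, with 8 of 8 estimates above 0 and a median of 0.72. Their summed level ran from 14.17 to 14.37 on normal, 12.15 to 13.70 on 4NQO and 13.61 to 13.97 on IL-1Ra arrays, lowest on 4NQO array 2. Of 5 endothelial markers 4 rose in 4NQO against normal (80.0%), all but Tek, with a median of 0.81. In IL-1Ra minus 4NQO 0 of the endothelial markers passed, with 5 of 5 estimates below 0 and a median of -0.51. Their summed level ran from 9.87 to 10.10, 10.36 to 10.85 and 10.05 to 10.34 in the same order. Of 9 macrophage markers 0 passed in any comparison, with medians of -0.43 in 4NQO minus normal and 0.70 in IL-1Ra minus 4NQO, and their summed level ran from 10.42 to 11.14, 9.60 to 11.26 and 10.70 to 11.40. Of 6 adipocyte markers 2 fell in IL-1Ra against normal (Lpl and Fabp4, 33.3%), calls likewise lost without IL-1Ra array 1, and 0 passed otherwise. Of 4 salivary gland and 3 Schwann cell markers 0 passed. The part of tissue make-up in the differences of the chain was not tested.

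**Figure D4:**
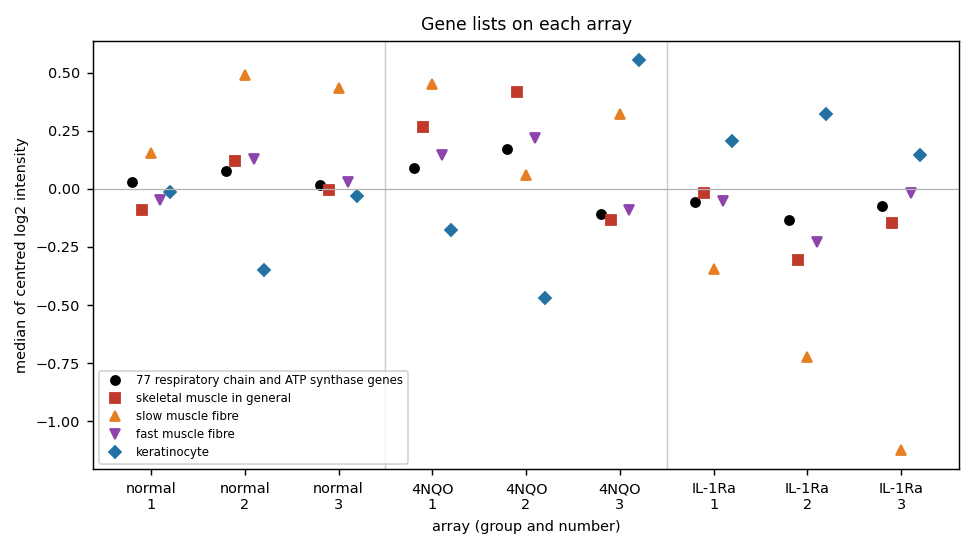
Median over a gene list of log2 intensity minus each gene's mean over the 9 arrays, by array, for the 77 respiratory chain and ATP synthase genes and for markers of muscle, slow fibres, fast fibres and keratinocytes. The black points stay between -0.13 and 0.17, slow fibre markers drop to -0.35, -0.72 and -1.12 on the IL-1Ra arrays, and keratinocyte markers reach 0.55 on 4NQO array 3.

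Complex I, the NADH dehydrogenase, is the largest complex and had a median of 0.08 log2 in 4NQO minus normal, with 24 of 33 estimates above 0, and of -0.17 in IL-1Ra minus 4NQO, with all 33 below 0. Ndufs1, the large iron-sulfur subunit of the electron-accepting arm, read 11.24, 11.34 and 11.17 log2 on the normal arrays, 11.37, 11.52 and 11.09 on the 4NQO arrays and 10.95, 10.96 and 11.14 on the IL-1Ra arrays. Its IL-1Ra arrays lay below the normal ones and overlapped with 4NQO, at -0.31 ± 0.13 log2 (SE, limma adjusted p = 0.225). Ndufa6, an accessory subunit, read 11.04, 11.12 and 11.11 log2 on the normal arrays, 11.25, 11.26 and 10.91 on the 4NQO arrays and 10.86, 10.84 and 10.83 on the IL-1Ra arrays. All IL-1Ra values of Ndufa6 lay below all others, at -0.30 ± 0.12 log2 (SE, limma adjusted p = 0.198), and with 4NQO array 3 left out its difference was -0.42 (limma adjusted p = 0.0348). Ndufa6 is named here after its values were seen.

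Ndufb7, an accessory subunit on the intermembrane side, read 11.15, 11.12 and 11.06 log2 on the normal arrays, 11.40, 11.61 and 11.26 on the 4NQO arrays and 11.16, 11.10 and 11.10 on the IL-1Ra arrays. The 4NQO arrays stood above both other groups, which overlapped, at 0.31 ± 0.11 log2 (SE, limma adjusted p = 0.0804) against normal and -0.30 ± 0.11 log2 (SE, limma adjusted p = 0.178) for IL-1Ra against 4NQO. Ndufv3, an accessory subunit of the same arm as Ndufs1, had the same order, with 0.28 ± 0.11 log2 (SE, limma adjusted p = 0.112) against normal. Without 4NQO array 3 both passed as higher in 4NQO, Ndufb7 at 0.39 (limma adjusted p = 0.0416) and Ndufv3 at 0.37 (limma adjusted p = 0.0472). A second, dimmer probe set of Ndufv3 gave -0.11 log2 in 4NQO minus normal on all arrays (limma adjusted p = 0.651), so its probe sets disagree in sign. Ndufv3 is named here after its values were seen.

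Ndufb8, a membrane arm subunit, read 8.85, 8.78 and 8.80 log2 on the normal arrays, 8.52, 8.92 and 8.34 on the 4NQO arrays and 8.70, 8.45 and 8.56 on the IL-1Ra arrays. It had the lowest estimate of complex I against normal in 4NQO, -0.21 ± 0.15 log2 (SE, limma adjusted p = 0.342), and the one nearest to 0 in IL-1Ra minus 4NQO, -0.02 ± 0.15 log2 (SE, limma adjusted p = 0.952). Ndufa5 was lowest in IL-1Ra minus normal, -0.32 ± 0.13 log2 (SE, limma adjusted p = 0.169), with its IL-1Ra arrays below the normal ones, and Ndufb10 was highest, 0.07 ± 0.12 log2 (SE, limma adjusted p = 0.755). A second, dimmer probe set of Ndufa9 gave 0.62 ± 0.19 log2 (SE, limma adjusted p = 0.0598) in 4NQO minus normal, where the brighter one gave 0.12.

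Complex II, succinate dehydrogenase, is also an enzyme of the citric acid cycle and consists of 4 nuclear-encoded subunits, all measured. Sdha, the flavoprotein, read 10.95, 10.95 and 10.78 log2 on the normal arrays, 11.10, 11.24 and 10.77 on the 4NQO arrays and 10.87, 10.91 and 10.84 on the IL-1Ra arrays, and Sdhb, the iron-sulfur subunit, read 12.002, 12.21 and 12.04 log2 on the normal arrays, 12.17, 12.23 and 11.79 on the 4NQO arrays and 11.93, 11.87 and 11.98 on the IL-1Ra arrays. In both genes 4NQO array 3 lay below the 3 IL-1Ra arrays and 4NQO array 2 was the highest of all 9. Of the membrane anchors, Sdhc read 11.64, 11.70 and 11.59 log2 on the normal arrays, 11.64, 11.76 and 11.34 on the 4NQO arrays and 11.53, 11.51 and 11.56 on the IL-1Ra arrays, and Sdhd read 12.10, 12.21 and 12.12 log2 on the normal arrays, 12.10, 12.21 and 11.75 on the 4NQO arrays and 11.90, 11.87 and 12.04 on the IL-1Ra arrays. Differences in IL-1Ra minus 4NQO were -0.16, -0.14, -0.05 and -0.08 log2 for Sdha to Sdhd, and limma adjusted p ran from 0.538 to 0.87. In 4NQO minus normal they were 0.14, -0.02, -0.06 and -0.12 (limma adjusted p from 0.476 to 0.916). Against normal, the IL-1Ra arrays of Sdhb, Sdhc and Sdhd lay lower without overlap, at -0.16, -0.11 and -0.21, and those of Sdha overlapped at -0.02.

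Complex III, the cytochrome bc1 complex, had a median of -0.09 log2 in 4NQO minus normal and of -0.11 in IL-1Ra minus 4NQO. Uqcrc1 and Uqcrc2 are its pair of core proteins. Uqcrc1 read 11.93, 11.94 and 11.87 log2 on the normal arrays, 12.09, 12.12 and 11.91 on the 4NQO arrays and 11.89, 11.86 and 11.92 on the IL-1Ra arrays, and Uqcrc2 read 12.23, 12.33 and 12.23 log2 on the normal arrays, 12.20, 12.27 and 11.92 on the 4NQO arrays and 11.94, 11.94 and 12.08 on the IL-1Ra arrays. They stood at opposite ends of the complex, with 0.13 and -0.13 in 4NQO minus normal and -0.02 and -0.28 in IL-1Ra minus normal (limma adjusted p = 0.198 for the last). A second, dimmer probe set of Uqcrc2 read 9.83, 9.77 and 9.86 log2 on the normal arrays, 9.35, 9.47 and 8.81 on the 4NQO arrays and 9.47, 9.43 and 9.11 on the IL-1Ra arrays, and it fell in 4NQO by 0.60 log2 (SE 0.17, limma adjusted p = 0.0424). It was the only one of the 9 further probe sets of these genes that passed in any comparison, and the probe sets of Uqcrc2 thus disagree. Uqcr11, a small subunit, was lowest in IL-1Ra minus 4NQO, -0.20 ± 0.10 log2 (SE, limma adjusted p = 0.288), without overlap, and Uqcrh, the hinge protein, was nearest to 0, -0.04 ± 0.10 log2 (SE, limma adjusted p = 0.865). In Uqcrq, the ubiquinone-binding subunit, normal, 4NQO and IL-1Ra arrays followed each other downward without overlap. It read 12.18, 12.21 and 12.29 log2 on the normal arrays, 12.16, 12.13 and 12.06 on the 4NQO arrays and 11.996, 11.99 and 12.02 on the IL-1Ra arrays. None of its differences passed (limma adjusted p = 0.433 for 4NQO minus normal and 0.546 for IL-1Ra minus 4NQO). Uqcrq is named here after its values were seen.

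In complex IV, cytochrome c oxidase, the forms of the same subunit were set against each other. Cox6a2, the muscle form, read 12.90, 12.99 and 12.86 log2 on the normal arrays, 13.07, 13.17 and 12.75 on the 4NQO arrays and 12.89, 12.74 and 12.83 on the IL-1Ra arrays. Cox6a1, the form of most tissues, read 10.52, 10.39 and 10.45 log2 on the normal arrays, 10.35, 10.32 and 10.70 on the 4NQO arrays and 10.52, 10.63 and 10.51 on the IL-1Ra arrays. The forms mirrored each other: on 4NQO array 3 Cox6a2 was near its lowest and Cox6a1 at its highest value. The difference Cox6a2 minus Cox6a1, taken within each array, was 2.38, 2.60 and 2.42 log2 on normal, 2.72, 2.85 and 2.05 on 4NQO and 2.37, 2.12 and 2.33 on IL-1Ra arrays. Only its change between groups can be read, since levels of different probe sets are not comparable. It changed by 0.07 in 4NQO minus normal (exact permutation p = 0.9, n = 3), by -0.27 in IL-1Ra minus 4NQO (exact permutation p = 0.4, n = 3) and by -0.19 in IL-1Ra minus normal (exact permutation p = 0.1, n = 3, the smallest that 3 arrays against 3 allow). The last was -0.128 after quantile normalization and -0.0765 after cyclic loess (exact permutation p = 0.6 in both).

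Cox8b, the muscle form of another small subunit, read 12.80, 12.86 and 12.75 log2 on the normal arrays, 12.83, 12.86 and 12.60 on the 4NQO arrays and 12.68, 12.50 and 12.61 on the IL-1Ra arrays. Cox8a, the form of most tissues, read 11.36, 11.28 and 11.36 log2 on the normal arrays, 11.19, 11.22 and 11.36 on the 4NQO arrays and 11.23, 11.21 and 11.24 on the IL-1Ra arrays. The difference Cox8b minus Cox8a changed by 0.04 in 4NQO minus normal (exact permutation p = 0.8, n = 3), by -0.14 in IL-1Ra minus 4NQO (exact permutation p = 0.4, n = 3) and by -0.10 in IL-1Ra minus normal (exact permutation p = 0.4, n = 3). Adjusted over these 6 two-sided tests, the exact permutation p was 0.6 to 0.9. Both forms lay lower on every IL-1Ra array than on every normal one.

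Cox7a1, the muscle form of subunit 7a, varied more than any other member on the 4NQO arrays and read 9.55, 9.67 and 9.59 log2 on the normal arrays, 10.25, 10.27 and 8.95 on the 4NQO arrays and 9.79, 9.30 and 9.47 on the IL-1Ra arrays. On 4NQO arrays 1 and 2 it was above every other array, and on array 3 below every other. Its differences were 0.22 ± 0.31 log2 (SE, limma adjusted p = 0.643) in 4NQO minus normal and -0.30 ± 0.31 log2 (SE, limma adjusted p = 0.641) in IL-1Ra minus 4NQO. That array made both smaller in size: without it they were 0.66 (limma adjusted p = 0.0234) and -0.74 (limma adjusted p = 0.0222). Cox7a2l, a relative of subunit 7a that joins complexes III and IV in supercomplexes, read 10.37, 10.33 and 10.37 log2 on the normal arrays, 10.40, 10.50 and 10.38 on the 4NQO arrays and 10.37, 10.14 and 10.18 on the IL-1Ra arrays. Its 4NQO arrays lay just above both other groups, and its differences of 0.07 from normal and -0.20 for IL-1Ra minus 4NQO did not pass (limma adjusted p = 0.666 and 0.323).

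Cox6c-ps1 was the one member called, and a dim one: it read 4.18, 4.48 and 4.56 log2 on the normal arrays, 3.84, 3.83 and 3.72 on the 4NQO arrays and 3.92, 3.88 and 3.58 on the IL-1Ra arrays. The normal arrays lay above all others, and the gene was lower in 4NQO at -0.61 ± 0.14 log2 (SE, limma adjusted p = 0.0192), 1.53-fold. The call was lost without normal array 2 (limma adjusted p = 0.0708), without normal array 3 (limma adjusted p = 0.0836) and when dim probe sets were left out. IL-1Ra minus normal was of the same size, -0.62 ± 0.14 log2 (SE, limma adjusted p = 0.0524). Being a copy of Cox6c, it may share sequence with the gene, so that its probe set is an uncertain measure. Cox6c itself gave -0.08 and -0.16 log2 in the same comparisons. Cox6b2, a form known from testis, was also dim, at 4.44, 4.37 and 4.40 log2 on the normal arrays, 4.60, 4.09 and 3.63 on the 4NQO arrays and 4.08, 4.32 and 3.99 on the IL-1Ra arrays, and its estimates had the wide intervals of -0.76 to 0.16 in 4NQO minus normal and -0.73 to 0.19 in IL-1Ra minus normal. Cox6b1, the general form, was steady at 12.13, 12.13 and 12.09 log2 on the normal arrays, 12.19, 12.14 and 12.07 on the 4NQO arrays and 12.08, 11.98 and 12.14 on the IL-1Ra arrays.

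Ndufa4l2, a relative of the complex IV subunit Ndufa4 that is known to be induced in hypoxia, read 6.85, 6.41 and 6.97 log2 on the normal arrays, 7.09, 6.97 and 6.94 on the 4NQO arrays and 7.01, 7.11 and 7.43 on the IL-1Ra arrays. Its IL-1Ra arrays all lay above the normal ones, and its estimates were 0.26 ± 0.16 log2 (SE, limma adjusted p = 0.288) for 4NQO minus normal and 0.45 ± 0.16 log2 (SE, limma adjusted p = 0.148) for IL-1Ra minus normal. Ndufa4 itself had the opposite order, -0.17 and -0.22, with both treated groups below normal on every array. Among the remaining subunits of complex IV, Cox5a, Cox7b and Cox7c had the lowest estimates in IL-1Ra minus normal, at -0.37, -0.28 and -0.32 (limma adjusted p = 0.188, 0.134 and 0.142), named after their values were seen. In each of the 3 every IL-1Ra array lay below every normal array.

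**Figure D5:**
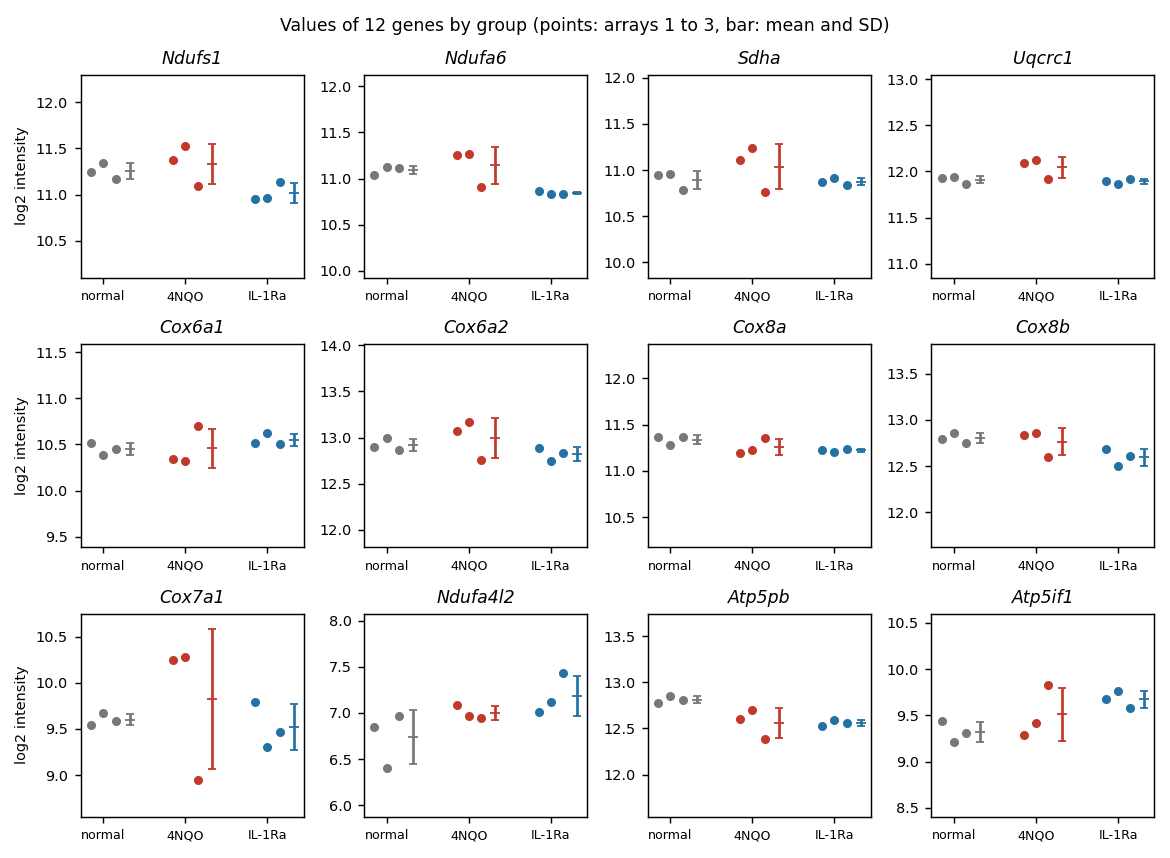
Log2 intensity of 12 genes in normal, 4NQO and IL-1Ra tongue, with arrays 1 to 3 as points from left to right and the mean with its SD as a bar. Every panel spans the same range of log2 units around the gene's own mean. Cox7a1 drops to 8.95 on 4NQO array 3 where Cox6a1 and Atp5if1 are highest, and the IL-1Ra points of Ndufa6 lie between 10.83 and 10.86, below all others.

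Complex V had a median of -0.01 log2 in 4NQO minus normal and of -0.11 in both IL-1Ra comparisons. Differences in the catalytic core were small. In the core's alpha and beta subunits every IL-1Ra array lay below every normal array. Atp5f1b, the catalytic beta subunit, read 13.02, 13.13 and 13.04 log2 on the normal arrays, 13.05, 13.16 and 12.96 on the 4NQO arrays and 13.000, 12.97 and 13.01 on the IL-1Ra arrays, and Atp5f1a, the alpha subunit, differed by -0.07, -0.04 and -0.11 in the 3 comparisons. Atp5pb, a subunit of the peripheral stalk, read 12.77, 12.85 and 12.81 log2 on the normal arrays, 12.61, 12.70 and 12.38 on the 4NQO arrays and 12.53, 12.59 and 12.56 on the IL-1Ra arrays. Both treated groups of Atp5pb lay below normal without overlap, at -0.25 ± 0.11 log2 (SE, limma adjusted p = 0.138) for 4NQO and -0.25 ± 0.11 log2 (SE, limma adjusted p = 0.201) for IL-1Ra. Atp5me, a small membrane subunit, had the same order and the lowest estimate of the complex in IL-1Ra minus normal, -0.39 ± 0.11 log2 (SE, limma adjusted p = 0.0862). Atp5pf, another stalk subunit, was lowest in IL-1Ra minus 4NQO, -0.27 ± 0.10 log2 (SE, limma adjusted p = 0.198), with 11.74, 11.81 and 11.70 log2 on the normal arrays, 11.69, 11.82 and 11.56 on the 4NQO arrays and 11.48, 11.39 and 11.41 on the IL-1Ra arrays, and its IL-1Ra arrays lay below all others.

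Atp5if1, the inhibitor that blocks reverse action of the synthase, ran against its complex. It read 9.43, 9.22 and 9.31 log2 on the normal arrays, 9.29, 9.41 and 9.83 on the 4NQO arrays and 9.68, 9.76 and 9.58 on the IL-1Ra arrays. Every IL-1Ra array lay above every normal one, and the 4NQO arrays spanned both groups, with array 3 highest of all 9. Its estimates were 0.19 ± 0.15 log2 (SE, limma adjusted p = 0.391), 0.16 ± 0.15 log2 (SE, limma adjusted p = 0.587) and 0.35 ± 0.15 log2 (SE, limma adjusted p = 0.188) in 4NQO minus normal, IL-1Ra minus 4NQO and IL-1Ra minus normal. Further dim probe sets of the gene gave -0.14 and -0.35 in 4NQO minus normal and -0.10 and -0.14 in IL-1Ra minus normal, so its probe sets disagree in sign.

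Across the 9 arrays, which share 3 groups and are not independent points, the correlation of a member with the members' mean centred log2 value had a median of 0.85, and 47 of 77 reached 0.8. As each member is part of that mean, the values are descriptions only. The closest were Ndufb3 (0.98), Atp5mf (0.97), Atp5po (0.97), Atp5mpl (0.96) and Ndufa5 (0.96). Cox6a1 (-0.92), Atp5if1 (-0.83), Ndufa4l2 (-0.39) and Cox8a (-0.10) had correlations below 0. Of the genes outside the chain, Ube2d1, Cisd1, Acad8, Adss1 and Camta1 had the pattern most alike, from 0.98 for the first to 0.97 for the last.

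The subunits left out by name had 0 of 5 called and medians of -0.08, -0.09 and -0.14 log2 in 4NQO minus normal, IL-1Ra minus 4NQO and IL-1Ra minus normal. Cox4i1, the general form of subunit 4, read 12.84, 12.84 and 12.82 log2 on the normal arrays, 12.80, 12.90 and 12.73 on the 4NQO arrays and 12.71, 12.69 and 12.70 on the IL-1Ra arrays, so that its IL-1Ra arrays were the lowest by a narrow margin, at -0.13 ± 0.09 log2 (SE, limma adjusted p = 0.419) against normal. Among 12 measured energy carriers of the mitochondrial membranes, such as the ATP/ADP carrier Slc25a4 of heart and muscle, 0 passed in any comparison, with medians of -0.01, -0.14 and -0.19.

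Assembly factors build the complexes and do not remain in them. Of 43 measured, 1 rose (2.33%, against 12.4% of all genes) and 0 fell in 4NQO, with 35 estimates above 0 and a median of 0.18 log2, and 40 estimates lay below 0 in IL-1Ra minus 4NQO, with a median of -0.18 and 0 called. Uqcc3, an assembly factor of complex III, was higher in 4NQO, at 7.06, 7.11 and 6.99 log2 on the normal arrays, 7.55, 7.66 and 7.39 on the 4NQO arrays and 7.20, 7.26 and 7.39 on the IL-1Ra arrays, a difference of 0.48 ± 0.11 log2 (SE, limma adjusted p = 0.0203). Acad9, needed to assemble complex I, was higher in IL-1Ra than in normal tongue, at 0.51 ± 0.10 log2 (SE, limma adjusted p = 0.044), with no overlap. It was the only one of the 43 called in that comparison (2.33%, against 1.66% of all genes). The call was lost without IL-1Ra array 1 and without any 1 normal array, where 0 of all genes passed.

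Of 15 measured genes of the citric acid cycle and pyruvate dehydrogenase, 2 rose in 4NQO against normal (13.3%, against 12.4% of all genes), 0 fell and 13 did not pass. Dlst, a component of the oxoglutarate dehydrogenase complex, read 10.26, 10.39 and 10.27 log2 on the normal arrays, 10.92, 10.90 and 10.65 on the 4NQO arrays and 10.41, 10.45 and 10.47 on the IL-1Ra arrays and was higher in 4NQO at 0.52 ± 0.11 log2 (SE, limma adjusted p = 0.0157). Suclg2, a subunit of succinyl-CoA ligase, was higher at 0.38 ± 0.11 log2 (SE, limma adjusted p = 0.0476). All 15 estimates lay below 0 in IL-1Ra minus 4NQO, with a median of -0.22 and 0 called. Dld, the dehydrogenase subunit that several of these complexes share, was lower in IL-1Ra than in normal tongue at -0.70 ± 0.14 log2 (SE, limma adjusted p = 0.0442). It was the only one of the 15 called there (6.67%, against 0.542% of all genes). That call was lost without IL-1Ra array 1 and without any 1 normal array, where 0 of all genes passed.

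Of 17 regulators of mitochondrial biogenesis, 3 rose in 4NQO (17.6%, against 12.4% of all genes), 0 fell and 14 did not pass, with a median of 0.27 log2. Twnk, the helicase of mitochondrial DNA, read 6.86, 6.91 and 6.85 log2 on the normal arrays, 7.64, 7.69 and 7.41 on the 4NQO arrays and 7.20, 7.16 and 6.998 on the IL-1Ra arrays, and it was higher in 4NQO at 0.71 ± 0.11 log2 (SE, limma adjusted p = 0.00734). The 4NQO arrays of Twnk lay above all others and the IL-1Ra arrays above the normal ones. Yy1, one of the factors whose word was searched for above, was higher in 4NQO at 0.46 ± 0.10 log2 (SE, limma adjusted p = 0.0188), as was the coactivator Pprc1 at 0.85 ± 0.22 log2 (SE, limma adjusted p = 0.0321). Better known members of the list did not pass: in 4NQO minus normal the coactivator Ppargc1a was at 0.26, Nrf1 at 0.44 (limma adjusted p = 0.0515), Gabpa at -0.22, Esrra at -0.13, Esrrg at 0.10 and Tfam, the packaging factor of mitochondrial DNA, at 0.05. In IL-1Ra minus 4NQO 16 of the 17 estimates lay below 0, with 0 called and a median of -0.23.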

How the data were processed

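Biotin-labelled RNA from 9 rat tongue samples was hybridised to Affymetrix rat arrays. The deposited values were intensities on a linear scale, which the authors made with Affymetrix Expression Console and RMA per the submitters' processing notes (versions not given in the sources used here). RMA evens out the distributions of arrays, which can hide a change shared by most genes. The log2 of each intensity was taken, 57 control probe sets were left out, and a model with 3 group means was fitted by limma 3.58.1 (R 4.3.3) to 31042 probe sets on the 9 arrays together (eBayes, two-sided, Benjamini-Hochberg within each comparison, threshold 0.05). Differences of paired subunit forms were compared by exact permutation tests with scipy 1.17.1. A gene was named only from probe sets with 1 symbol. The fit was tested on simulated data. Groups came from the treatment labels, which share no replicate numbers. The members and gene lists were chosen with earlier results of these data known. Named genes were those called, fixed subunit forms and the extremes of each complex. Ndufa6, Ndufv3, Uqcrq, Cox5a, Cox7b and Cox7c are marked as named after their values were seen. Some genes without a mark, among them Ndufa4, Atp5f1a and Atp5f1b, were also named outside these rules. Alternatives were other scalings, a filter on dim probe sets, another variance model, 6 arrays only, the methods' t-test (named for the study's statistics in general and not for the arrays), the mean of probe sets, and leaving out each array. RefSeq proteins and the Cox7a1 with Cox7a2 pair were not analysed here.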

Additional observations from a re-analysis of the deposited data

How the results depend on the processing

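With 9 arrays, only differences well above 0.24 log2 could pass for most members. Leaving out 1 array gave 0 to 3 members called higher in 4NQO minus normal (3 without 4NQO array 3, 3.9% against 11.8% of all genes: Cox7a1, Ndufb7 and Ndufv3) and 0 to 1 called lower, where Cox6c-ps1 was lost without normal array 2 or 3. In IL-1Ra minus 4NQO it gave 0 to 2 called lower (2 without 4NQO array 3, 2.6% against 4.43% of all genes: Cox7a1 and Ndufa6), and in IL-1Ra minus normal 0 to 1 (1 without 4NQO array 2 or 3: Cox6c-ps1). In 4NQO minus normal 0 members were called lower without the dimmest 40% of probe sets, 0 by the methods' t-test at 2-fold and 0 by that test after Benjamini-Hochberg. In IL-1Ra minus normal 1 was called lower with the 6 compared arrays alone (Cox6c-ps1), 1 by the t-test at 1.5-fold and 1 by that test after Benjamini-Hochberg (Cox7b). Over all genes, calls in IL-1Ra minus normal dropped from 313 to between 0 and 6 when a normal or IL-1Ra array was left out. The cause was not tested.

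The member median stayed below 0 in both IL-1Ra comparisons under every scaling and every array left out, from -0.22 (without 4NQO array 3) to -0.08 (without 4NQO array 2) against 4NQO and from -0.14 to -0.09 against normal. In 4NQO minus normal it ran from -0.04 to 0.08 and changed sign. Counts of members whose arrays did not overlap were recomputed under 2 scalings chosen after seeing the data. In 4NQO minus normal 8 were higher (10.4%, against 18.1% of all genes) and 3 lower (3.9%, against 15.3%) after quantile normalization and 12 lower after cyclic loess (15.6%, against 16.8%), and in IL-1Ra minus 4NQO 1 was higher under each (1.3%, against 10.0% and 11.1%). The change of Cox6a2 minus Cox6a1 in 4NQO minus normal ran from -0.0795 to 0.319 with 1 array left out, and was -0.0176 without 4NQO array 1 and -0.0795 without array 2. In IL-1Ra minus 4NQO it ran from -0.513 (without 4NQO array 3) to -0.115 (without 4NQO array 2). In 4NQO minus normal, Cox8b minus Cox8a changed by -0.00828 after quantile normalization and ran from -0.0267 to 0.172 with 1 array left out, being below 0 without 4NQO array 1 or 2 and at -1.6e-05 without normal array 3. Of 821 recomputed values of named members, 0 reversed among those called, 2 lost and 6 gained a call. Only Cox6c-ps1 in 4NQO minus normal was called in the main fit, so the first of these counts says little. In 31 values the sign differed with neither value called. No paired analysis was possible because the labels carry no replicate numbers shared between groups.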

Other observations

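The ribosome of the mitochondrion translates the subunits that mitochondrial DNA encodes, and its nuclear genes were examined after values of these data had been seen. Of 73 measured genes with symbols beginning Mrpl or Mrps, 4 rose in 4NQO against normal (5.48%, below the 12.4% of all genes) and 0 fell, with 67 estimates above 0 and a median of 0.21 log2, beside 0.01 for the 77 respiratory chain and ATP synthase genes and 0.08 for all genes. Mrpl38, of the large subunit, read 8.03, 7.67 and 7.65 log2 on the normal arrays, 8.45, 8.54 and 8.23 on the 4NQO arrays and 8.08, 8.01 and 8.03 on the IL-1Ra arrays. Its 4NQO arrays lay above all others, at 0.63 ± 0.13 log2 (SE, limma adjusted p = 0.0164). Mrpl19 and Mrpl21, of the large subunit, were higher at 0.41 ± 0.11 log2 (SE, limma adjusted p = 0.0375) and 0.34 ± 0.10 log2 (SE, limma adjusted p = 0.0494), and Mrps27, of the small subunit, at 0.43 ± 0.12 log2 (SE, limma adjusted p = 0.0397). In IL-1Ra minus 4NQO 67 of the 73 estimates lay below 0, with a median of -0.15 and 0 called, and in IL-1Ra minus normal the median was 0.04, with 0 called.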
